A study of Mus musculus with 2 samples.

Results

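Mitosis-rich spots were the 60 spots of each heart section in which the largest share of transcripts came from 10 genes of the G2 phase and mitosis, namely Mki67, Top2a, Ccnb1, Ccnb2, Cdk1, Nusap1, Cenpf, Ube2c, Birc5 and Cdc20. They made up 120 of 1662 kept spots (7.22%), 60 of 811 in the PD1 Het section and 60 of 851 in that of the PD1 KO, below called the Het and KO sections. The spots were selected on these 10 measured values, so the level of the 10 genes in them is a description of the choice and supports nothing. The comparison of other genes with the remaining spots of the same section asks which kinds of cardiac cells share these spots.

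The data were Visium spatial libraries from 1 transverse section of a PD1 Het heart (PD1 +/-) and 1 of a PD1 KO heart (PD1 -/-). Both mice were C57BL/6 and had a myocardial infarction induced by ligation of the left anterior descending artery at postnatal day 2, and both hearts were frozen 7 days later. There was no heart without surgery and no wild-type heart. In the Visium assay a tissue section lies on a printed grid, each point of the grid tags the polyadenylated RNA above it with its own barcode, and each captured molecule is counted once as a unique molecular identifier (UMI). A spot takes in RNA of more than 1 cell, which may be of different types. It is therefore a small region and not a cell, and a lower value in it can mean fewer cells of a type or less RNA per cell, which cannot be told apart. With 1 section per genotype there is no replicate, so no test was made. Every interval of a level or ratio is a 95% interval for counting error only, which does not cover the spread between spots. The 95% intervals of shares of spots take each spot as a separate draw and do not cover the spread between sections.

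A heart muscle cell of a newborn mouse can still divide, and the neonatal heart can regenerate after injury, an ability that is lost within days of birth. A cell that passes from DNA replication in S phase into G2 and mitosis accumulates cyclin B and its kinase, Cdk1, which drive entry into mitosis. The anaphase-promoting complex, with its activator Cdc20 and its ubiquitin-conjugating enzyme Ube2c, then destroys cyclin B and lets the chromosomes separate. Many genes of this phase are switched on together through promoter elements called the cell cycle genes homology region (core TTTGAA) and CCAAT boxes, whereas genes of DNA replication are classical targets of E2F factors. PD-1, encoded by Pdcd1, is an inhibitory receptor of activated T cells.

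The promoter sequences of 5 of the 10 genes are shown because these genes define the spots and because the elements that are shared, or lacking, can be read directly in them. Each is the stretch of 120 bases just before the RefSeq transcription start (GRCm38.p6), written 5′ to 3′ along the strand of the gene. Capitals mark TTTGAA and CCAAT on either strand (TTCAAA and ATTGG on the other strand). Cdk1, the mitotic kinase (chr10:69352913-69353032, minus strand), holds 2 copies of each, and Top2a, the topoisomerase that untangles sister chromosomes (chr11:99024190-99024309, minus strand), holds 1 TTTGAA and 3 CCAAT. Ube2c (chr2:164769809-164769928, plus strand) and Cdc20 (chr4:118437344-118437463, minus strand) each hold 1 TTTGAA and 2 CCAAT. Ccnb1, which encodes cyclin B1 (chr13:100786487-100786606, minus strand), holds 2 CCAAT and 0 TTTGAA.
Cdk1: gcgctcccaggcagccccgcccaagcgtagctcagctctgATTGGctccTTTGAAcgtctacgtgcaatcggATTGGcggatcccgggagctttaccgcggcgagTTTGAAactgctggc
Top2a: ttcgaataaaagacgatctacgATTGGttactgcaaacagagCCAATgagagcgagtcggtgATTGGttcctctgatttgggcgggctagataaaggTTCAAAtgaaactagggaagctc
Ube2c: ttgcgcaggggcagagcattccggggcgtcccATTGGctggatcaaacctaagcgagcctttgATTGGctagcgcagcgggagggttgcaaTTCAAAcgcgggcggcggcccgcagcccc
Cdc20: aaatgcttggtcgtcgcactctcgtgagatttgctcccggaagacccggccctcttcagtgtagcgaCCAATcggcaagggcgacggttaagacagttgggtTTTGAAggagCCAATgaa
Ccnb1: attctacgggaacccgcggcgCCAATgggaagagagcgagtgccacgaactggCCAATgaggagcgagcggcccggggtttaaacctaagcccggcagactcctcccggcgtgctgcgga

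In windows of 300 bases, from 250 before to 50 after the start, TTTGAA was present for 7 of the 10 rule genes (70%) and in 17.9% of all 32851 RefSeq promoter windows. CCAAT was present for 8 of the 10 (80%) and in 37.4% of all windows, and both were present for 7 of the 10 and in 6.95% of all windows. The windows of Nusap1, which bundles spindle microtubules, and Birc5, the survivin subunit of the chromosomal passenger complex, held neither. Of the 38 windows of 36 other G2 and M phase genes, 65.8% held TTTGAA and 81.6% held CCAAT. Of the 30 windows of 25 S phase genes, 13.3% held TTTGAA and 56.7% held CCAAT. The E2F-type motif TTCCCGCC was in 16.7% of them, against 2.19% of all windows and 0 of the windows of the rule genes. Among ventricular cardiomyocyte markers, TTTGAA was in 1 of 17 windows and CCAAT in 9 of 17 (52.9%). CCAAT was thus above its share of all windows in the S phase and cardiomyocyte lists too. A match is a description of the letters and not evidence that a factor binds there.

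The 10 genes chose spots with few molecules. In the Het section a mitosis-rich spot held between 1 and 20 UMIs of the 10 genes, with a median of 9, and the remaining spots held 0 to 13 with a median of 3. Chosen PD1 KO spots held 15 to 45 with a median of 26, and the remaining spots 0 to 30 with a median of 9. In CPM, which scales the UMIs of each spot or set to the same total, the chosen PD1 Het spots ranged from 498.5 to 1269 CPM with a median of 611.8, and the chosen PD1 KO spots from 792.7 to 1562 CPM with a median of 905.3. The last spot inside the limit stood close to the first spot outside it, at 498.5 against 494.5 CPM in the Het section and at 792.7 against 786.4 CPM in the KO section. The values therefore form a continuous slope with no gap at the limit, as the ranked plot shows. The chosen spots held 566 of the 2681 rule gene UMIs of the Het section (21.11%) with 6.659% of its UMIs, and 1648 of the 8877 of the KO section (18.56%) with 7.241% of its UMIs.

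**Figure D1:**
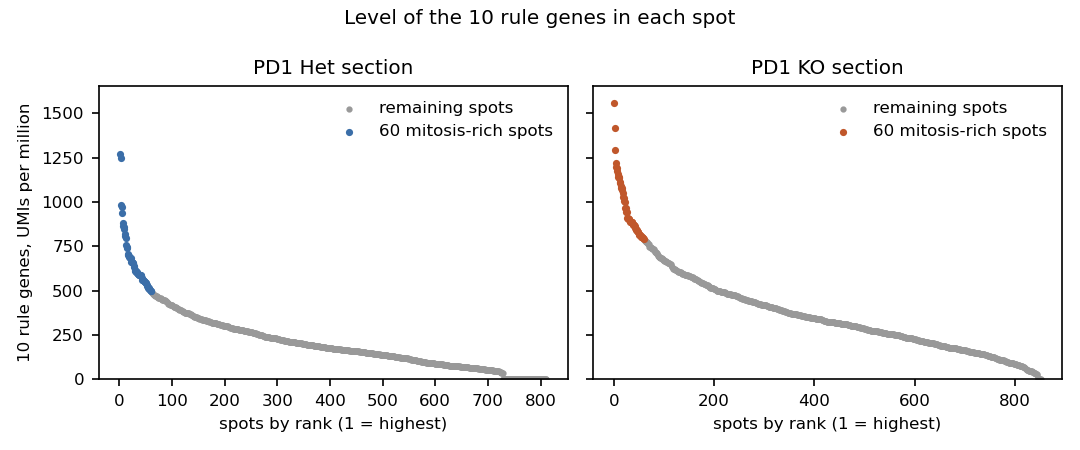
Level of the 10 rule genes in every kept spot (CPM, vertical axis) against the rank of the spot (horizontal axis), for the Het section (left) and the KO section (right). Coloured points are the 60 mitosis-rich spots of each section and grey points the remaining spots, and the values pass the limit near 498.5 and 792.7 CPM without a gap.

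Several of the 10 genes were usually seen in the same spot, which describes the choice, since the spots were ranked on the sum of these genes. A median of 5 of the 10 genes had a UMI in the mitosis-rich spots of the Het section, against 2 in the remaining spots, and 9 against 5 in the deeper KO section. At least 5 of the 10 were seen in 43 of the 60 mitosis-rich PD1 Het spots and in 61 of the 751 remaining ones. For the KO section the same was true of all 60 and of 496 of the 791 remaining spots. The least supported members were 4 PD1 Het spots with under 5000 UMIs, of 1708, 1893, 2649 and 3152 UMIs, which were chosen on 1, 1, 2 and 4 rule gene UMIs. The smallest of them held 0 UMIs of the other G2 and M phase genes. No mitosis-rich spot of the KO section had under 5000 UMIs.

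Ube2c was the rule gene with the most UMIs in the mitosis-rich spots of both sections, with 114 UMIs (134 CPM) against 30.4 CPM in the remaining PD1 Het spots and 334 UMIs (196 CPM) against 57.1 CPM in the remaining PD1 KO spots. Mki67, which encodes the proliferation antigen Ki-67 (chr7:135689784-135716361), followed closely in the Het section with 111 UMIs (130 CPM against 35.4 CPM), but stood below Birc5 and Cdk1 in the KO section with 186 UMIs (109 CPM against 47.9 CPM). Ccnb1 and Cdk1 had 40 and 69 UMIs in the chosen PD1 Het spots and 150 and 209 in the chosen PD1 KO spots. The other cyclin B gene, Ccnb2 (chr9:70407692-70421547), had 30 and 104. Cenpf (chr1:189640606-189688086), a kinetochore protein, had 33 and 85 UMIs. Birc5 (chr11:117849251-117855743) had 59 and 220, and Nusap1 (chr2:119618298-119651244) was the scarcest, with 8 and 53 UMIs. On the log2 scale the ratio of mitosis-rich over remaining spots lay between 0.85 for Nusap1 and 2.13 for Ube2c in the Het section, and between 1.19 for Mki67 and 1.92 for Ccnb1 in the KO section. Gene positions are those of GENCODE vM21 on GRCm38.

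**Figure D2:**
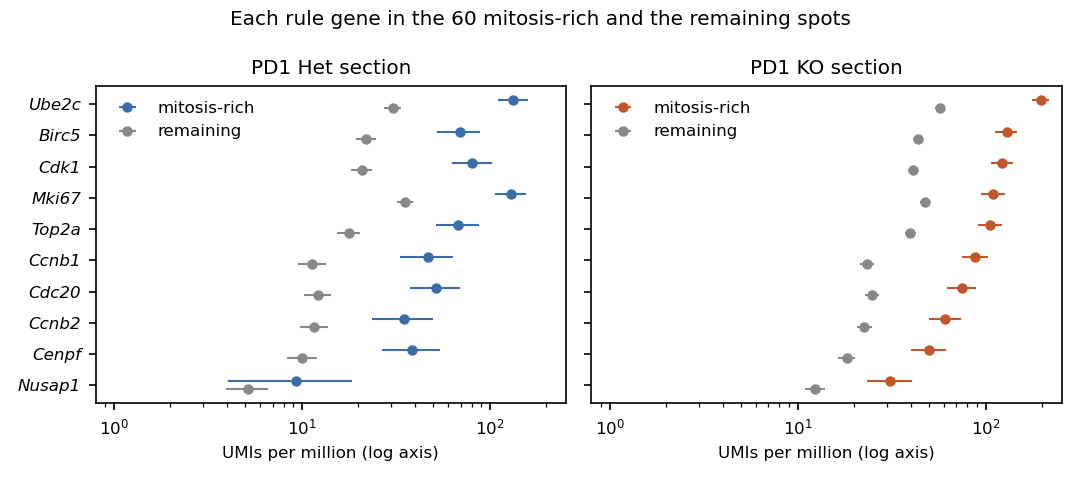
Each of the 10 rule genes (vertical axis) in the 60 mitosis-rich spots (coloured) and the remaining spots (grey) of each section, in CPM on a log axis. Points are summed UMIs over the set and bars 95% Poisson intervals, and Nusap1 in the Het section, with 8 UMIs in the chosen spots, has the widest bar.

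Because the 10 genes chose the spots, a part of their ratio comes from the choice. When 5 of the 10 genes chose 60 spots and the other 5 were measured, the measured genes had a log2 ratio of 1.0 (0.74 to 1.26) and, with the parts exchanged, 1.02 (0.80 to 1.24) in the Het section, against 1.91 for all 10 in the spots they chose. The same exchange in the KO section gave 1.19 (1.06 to 1.31) and 1.1 (0.98 to 1.22), against 1.55. Of the 60 spots chosen by 5 genes, 37 and 34 were mitosis-rich spots in the Het section and 39 and 41 in the KO section. Genes that had no part in the choice were thus still higher in the chosen spots, at a lower ratio than the 10 genes showed in their own spots.

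The 44 other G2 and M phase genes, which had no part in the choice, were higher in the mitosis-rich spots of both sections. Their summed level was 1497 CPM (1277 UMIs) against 887 CPM in the remaining PD1 Het spots, a log2 ratio of 0.75 (0.67 to 0.84), and 2507 CPM (4269 UMIs) against 1345 CPM in the KO section, a log2 ratio of 0.90 (0.85 to 0.94). Spot by spot, the mitosis-rich PD1 Het spots ranged from 0 to 2991 CPM with a median of 1365, and 51 of the 60 lay above the median of the remaining spots, 852 CPM. The mitosis-rich PD1 KO spots ranged from 1373 to 3738 CPM with a median of 2558, and all 60 lay above the median of the remaining spots, 1264 CPM. The sets overlapped in both sections, since remaining spots reached 3428 and 3909 CPM. Of the 44 members, 32 were at least 1.5-fold higher in the Het section, where 5.09% of all 8600 genes with at least 100 UMIs were, and 38 in the KO section, where 4.25% of 10792 genes were. The median member had a log2 ratio of 1.02 and 1.0, beside a median of 0.04 over all those genes in either section. Members were counted from 30 UMIs, a lower floor than that of the genes they are set against.

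By this list, which the choice did not use, the name mitosis-rich described each set as a whole but not every spot in the Het section. Where a pair of ratios is given below, the Het section comes before the KO section. Plk1, the polo-like kinase that drives several steps of mitosis, had 24 UMIs in the mitosis-rich and 81 in the remaining PD1 Het spots, a log2 ratio of 2.05 (1.33 to 2.73), and 62 and 252 UMIs in the KO section, a log2 ratio of 1.66 (1.23 to 2.06). Hmmr, a spindle assembly protein, had log2 ratios of 1.87 (1.24 to 2.46) and 1.73 (1.36 to 2.08). The spindle pole kinase Aurka had 1.68 and 1.84, the spindle checkpoint kinase Bub1b 1.94 and 1.38, and cyclin A2 (Ccna2) 1.05 and 1.44. The 2 members with the most UMIs had smaller ratios. The tubulin gene Tubb4b, at 287 against 219 CPM in the Het section, had a log2 ratio of 0.39 (0.20 to 0.58), and of 0.77 (0.64 to 0.89) in the KO section. Hmgb2, a chromatin protein, had 0.52 and 0.55. Pttg1, the securin gene, was at a log2 ratio of -0.07 (-0.55 to 0.37) and -0.10 (-0.39 to 0.17).

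Genes of the last step of division, cytokinesis, were higher in part. The summed list was at 450 against 382 CPM in the Het section and at 630 against 512 CPM in the KO section, log2 ratios of 0.23 (0.08 to 0.39) and 0.30 (0.21 to 0.39). Of its members with at least 30 UMIs, 5 of 9 were at least 1.5-fold higher in the Het section and 8 of 10 in the KO section, where 5.09% and 4.25% of all genes with at least 100 UMIs were. Anln, which encodes the contractile ring protein anillin, had log2 ratios of 1.75 (1.02 to 2.42) and 1.26 (0.90 to 1.61). Cep55, which acts at the midbody where daughter cells part, had 1.92 (0.47 to 3.16) on 7 UMIs and 1.40 (0.79 to 1.96) on 31 UMIs. Rhoa, a GTPase of the contractile ring that all cells use in their cytoskeleton, and the septin gene Sept7 made up most of the list's UMIs. Rhoa stood at -0.02 and 0.15, and Sept7 at 0.15 and -0.09.

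S phase genes were higher in the mitosis-rich spots by less. Their 31 members summed to 786 against 656 CPM in the Het section, a log2 ratio of 0.26 (0.15 to 0.38), and to 1123 against 868 CPM in the KO section, a log2 ratio of 0.37 (0.30 to 0.44). With the spots thinned to 5000 UMIs before ranking, the PD1 Het ratio was 0.097. The median mitosis-rich spot was at 717 CPM and the median remaining spot at 639 CPM in the Het section, and 32 of the 60 lay above the latter. Medians in the KO section were 1080 and 845 CPM, and 48 of the 60 lay above. At least 1.5-fold higher were 8 of 31 members in the Het section and 5 of 31 in the KO section. Of all genes with at least 100 UMIs, 5.09% and 4.25% were that much higher, while members were counted from 30 UMIs. At least 1.5-fold lower were 2 and 1, where 6.42% and 3.68% of all genes were that much lower. Rrm2, the S phase subunit of ribonucleotide reductase, led among abundant members with 0.73 (0.30 to 1.14) and 1.07 (0.87 to 1.27), and Prim1, the primase subunit, had 1.07 and 0.92. Pcna, the replication clamp, was at 0.18 (-0.19 to 0.53) and 0.30 (0.10 to 0.50).

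Earlier regulators of the cycle differed little. The summed G1 cyclin and E2F genes had log2 ratios of 0.08 (-0.06 to 0.22) and 0.21 (0.12 to 0.30), with Ccnd2, the most abundant of them, at -0.01 and 0.14 and Foxm1, a transcription factor of G2 genes, at 1.05 (0.04 to 1.94) and 0.48 (-0.19 to 1.09). Cell cycle inhibitors summed to 0.04 (-0.10 to 0.18) and 0.14 (0.06 to 0.22). Among these inhibitors, Cdkn2c, which blocks the G1 kinases Cdk4 and Cdk6, was at 0.70 (-0.01 to 1.34) and 0.83 (0.50 to 1.16). Cdkn1a, which encodes p21, was at 0.64 (0.10 to 1.15) and 0.48 (0.16 to 0.79). Histone variant, tubulin and chromatin genes that rise in dividing cells summed to 0.33 (0.26 to 0.39) and 0.44 (0.40 to 0.48). All 10 of them lay above 0 in both sections, where the median of all genes with at least 100 UMIs was also above 0, at 0.04. At least 1.5-fold higher were 1 and 3 of the 10, where 5.09% and 4.25% of all those genes were. The histone variant gene H2afz was at 0.55 and 0.63, and the most abundant member in the Het section, Ptma, at 0.02 and 0.15.

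**Figure D3:**
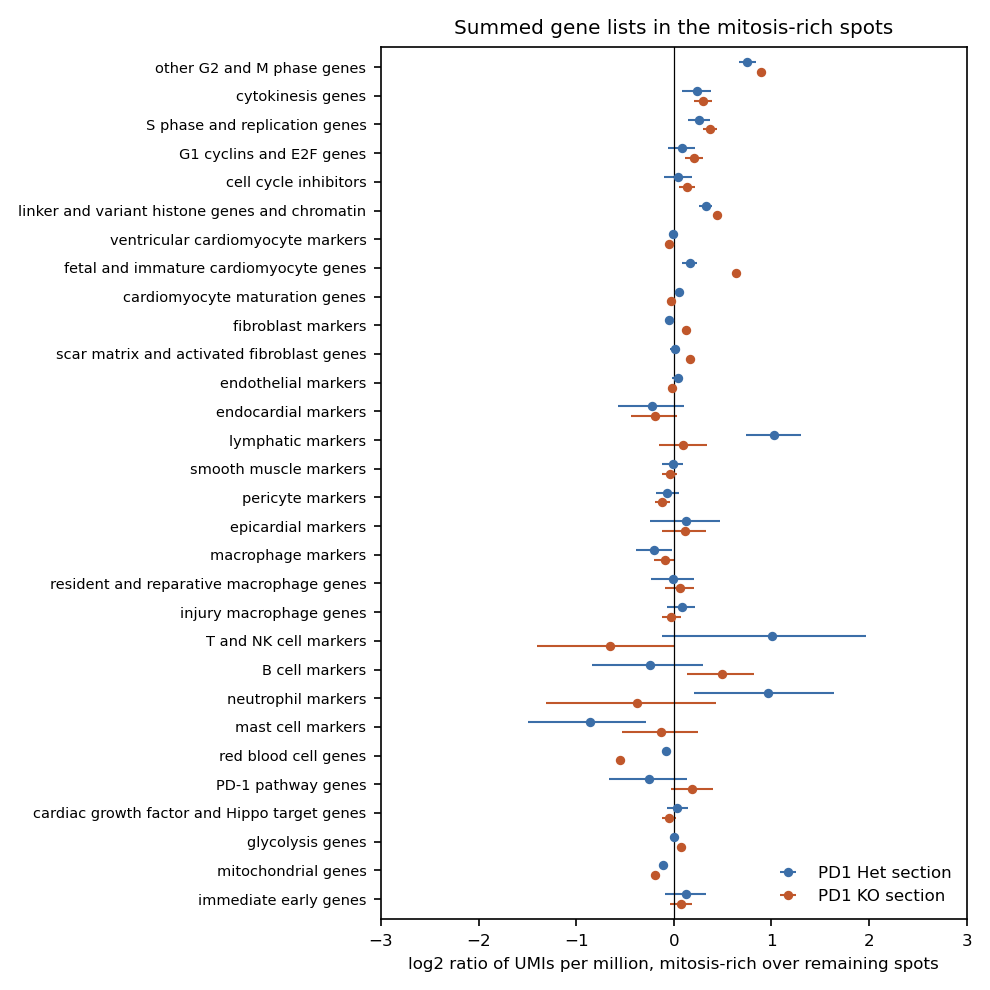
Log2 ratio of the summed level of each of 30 gene lists, mitosis-rich over remaining spots (horizontal axis), in the PD1 Het and KO sections, with 95% counting intervals as bars. The other G2 and M phase genes stand at 0.75 and 0.90, and in the KO section the fetal and immature cardiomyocyte genes stand at 0.64 and the red blood cell genes at -0.55.

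Markers of ventricular cardiomyocytes were at nearly the same level in mitosis-rich and remaining spots. These markers, which included Myl2 (ventricular myosin light chain) and Mb (myoglobin), made up 85173 CPM of the mitosis-rich and 85874 CPM of the remaining PD1 Het spots, a log2 ratio of -0.01 (-0.02 to -0.00098). The KO section had 83761 and 86777 CPM, a log2 ratio of -0.05 (-0.06 to -0.04). The mitosis-rich PD1 Het spots ranged from 38505 to 114610 CPM of these markers, so every one of them held heart muscle RNA. The mitosis-rich PD1 KO spots reached 104260 CPM, and all but 1 held at least 47178 CPM. That 1 spot stood at 4823 CPM with 34012 CPM of scar matrix genes, 2589 CPM of S phase genes and 2538 CPM of other G2 and M phase genes. Myl2 had log2 ratios of -0.01 and -0.05, Mb of -0.0043 and -0.03, the calcium pump gene Atp2a2 of -0.07 and -0.16, and the calcium release channel gene Ryr2 of -0.04 and -0.25 (-0.38 to -0.13). Genes of cardiomyocyte maturation, such as the fatty acid carrier Fabp3, summed to 0.05 (0.02 to 0.07) and -0.03 (-0.04 to -0.01).

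Fetal and immature cardiomyocyte genes had a log2 ratio of 0.16 (0.08 to 0.24) in the Het section and 0.64 (0.61 to 0.67) in the KO section, and in the latter Nppa supplied 6620 of the list's 10055 UMIs. Nppa encodes atrial natriuretic peptide, which ventricular muscle makes before birth and under stress (chr4:148000722-148002079). In the mitosis-rich PD1 KO spots it stood at 3887 CPM against 1939 CPM in the remaining spots, a log2 ratio of 1.0 (0.97 to 1.04). The spots ranged from 0 to 47347 CPM, with a median of 342 CPM against 262 CPM in the remaining spots, and 46.9% of the set's Nppa UMIs lay in 3 spots. Above 10000 CPM were 8 of the 60 mitosis-rich spots (13.3%) and 40 of the 791 remaining spots (5.06%). Without the spot of each set with the most Nppa the log2 ratio was 0.74. In the Het section 0 of the mitosis-rich and 2 of the remaining spots were above 10000 CPM, and the log2 ratio was -0.02 (-0.19 to 0.15), or -0.53 without the spot of each set with the most.

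Of the atrial muscle genes, Myl7 was at 7.71 CPM over all 48 kept PD1 KO spots with over 10000 CPM of Nppa and 0.984 CPM in the other kept spots, and Sln at 1.71 and 0.0895 CPM. The 8 mitosis-rich spots among the 48 held 0 UMIs of either gene, too few spots to place them at such levels. Myl4, the fetal and atrial myosin light chain, was at 189.5 CPM in these 8 spots against 19.97 CPM in the other mitosis-rich spots, and Myl2 at 9663 against 13630 CPM. Over all 48 spots Myl4 was at 108.8 against 18.61 CPM in the other kept spots, and Myl2 at 10880 against 13770 CPM, so neither difference was particular to the 8. The scar matrix level of the 8 spots ran from 5559 to 17498 CPM, above the median of 3745 CPM over all mitosis-rich PD1 KO spots. The Nppa-rich spots among the 60 were thus also matrix-rich, a feature noticed after the values were seen. The matrix level of the other Nppa-rich spots is not given here. Myh7, the fetal myosin heavy chain, had log2 ratios of 0.22 (-0.28 to 0.68) and 0.35 (0.17 to 0.52) over the whole set, and Ankrd1, a stress-responsive muscle gene, 0.30 (0.17 to 0.44) and 0.09 (0.02 to 0.17).

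Fibroblast markers had a log2 ratio of -0.05 (-0.09 to -0.0030) in the Het section, at 5218 against 5391 CPM, and of 0.12 (0.10 to 0.15) in the KO section, at 7697 against 7062 CPM. Neither sign held over other choices of spots, since the Het ratio was 0.14 with 120 spots and 0.053 after thinning to 5000 UMIs, and the KO ratio -0.073 with 30 spots. The median spot did not follow the sums in the KO section, since it was at 5264 CPM in the mitosis-rich and 5310 CPM in the remaining spots. The collagen gene Col3a1 was at -0.16 (-0.24 to -0.09) and 0.07 (0.02 to 0.12), and Col1a1 at 0.15 (0.04 to 0.26) and 0.23 (0.17 to 0.28). Leaving out the spots with under 5000 UMIs moved the PD1 Het list to -0.16, and its 4 shallow mitosis-rich spots were matrix-rich, with 16979, 12678, 14345 and 11421 CPM of scar matrix genes in the order of their UMIs above.

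Scar matrix and activated fibroblast genes, such as Postn (periostin) and Sparc, had log2 ratios of 0.01 (-0.04 to 0.07) and 0.17 (0.14 to 0.20). The median spot was at 2920 against 2896 CPM in the Het section and at 3745 against 3625 CPM in the KO section. In the quintile of spots with the highest matrix share lay 15 of the 60 mitosis-rich PD1 Het spots (25%, interval 14.7 to 37.9) and 13 of the 60 PD1 KO spots (21.67%, 12.1 to 34.2), where the quintile holds 20% of all kept spots. Timp1, an inhibitor of matrix proteases, was the member with the largest ratio, at 1.01 (0.58 to 1.41) and 0.71 (0.38 to 1.03). A single spot held 29 of its 91 UMIs in the mitosis-rich PD1 KO spots, and without the highest spot of each set the log2 ratio there was 0.21.

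Vascular and mural markers gave small ratios where they had many UMIs. Endothelial markers were at 3237 against 3151 CPM in the Het section and at 3658 against 3699 CPM in the KO section, log2 ratios of 0.04 (-0.02 to 0.09) and -0.02 (-0.05 to 0.02). Fabp4, a fatty acid carrier of the cardiac capillaries, lay at 0.11 and -0.02, and the fatty acid receptor gene Cd36 at -0.0013 and 0.0032. Scarcer members differed more, with Flt1 at -0.62 (-1.24 to -0.07) and -0.12 (-0.44 to 0.18). Rgcc was at 0.20 (-0.28 to 0.65) and 0.36 (0.05 to 0.65). Of the 15 endothelial members, 8 and 6 lay above 0. Endocardial markers summed to -0.22 (-0.57 to 0.11) and -0.20 (-0.44 to 0.03), and their members differed. Vwf, the von Willebrand factor gene of larger vessels and endocardium, was lower, with 17 UMIs (19.9 against 37.9 CPM), a log2 ratio of -0.93 (-1.72 to -0.23), and 37 UMIs (21.7 against 36.9 CPM), a log2 ratio of -0.76 (-1.28 to -0.29). Nfatc1, a transcription factor of the endocardium, was at 0.12 (-1.13 to 1.15) and 0.54 (0.0038 to 1.03). Smooth muscle markers summed to -0.01 and -0.04, but these sums mostly followed 1 gene. Des, the desmin gene, supplied 668 of the 749 UMIs of the list in the mitosis-rich PD1 Het spots and 1240 of 1493 in the PD1 KO spots. Des lay at 0.02 and -0.02, and only 2 and 1 of the 7 members lay above 0. Myh11, the smooth muscle myosin heavy chain, was at -0.89 (-2.04 to 0.06) on 9 UMIs and -0.77 (-1.46 to -0.15) on 22 UMIs. Pericyte markers summed to -0.07 (-0.19 to 0.05) and -0.12 (-0.19 to -0.04), and epicardial markers to 0.13 (-0.24 to 0.48) and 0.11 (-0.12 to 0.33). Lymphatic markers were at 1.03 (0.74 to 1.30) in the Het section, where 3 spots held 98% of the 49 UMIs of the lymphatic chemokine gene Ccl21a, and at 0.08 without the 5% of spots of each set with the most lymphatic UMIs. In the KO section they were at 0.10 (-0.16 to 0.34).

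Macrophage markers were slightly lower or level. They summed to 315 against 362 CPM in the Het section, a log2 ratio of -0.20 (-0.38 to -0.02), and to 457 against 488 CPM in the KO section, a log2 ratio of -0.09 (-0.20 to 0.01), while the median spot was at 281 against 252 CPM and at 283 against 295 CPM. Lyz2, the myeloid lysozyme gene, was at -0.34 (-0.76 to 0.05) and -0.32 (-0.54 to -0.10). The direction depended on how the spots were chosen, since 60 spots chosen by the other G2 and M phase genes gave 0.44 and 0.23 for the same macrophage markers. With 120 spots the Het ratio was 0.12. Gpnmb, a gene of lipid-laden injury macrophages, had 1 and 10 UMIs, at log2 ratios of -2.38 (-7.70 to 0.14) and -1.61 (-2.69 to -0.72). Plac8, of the same injury macrophage list, had 4 and 11 UMIs, at 0.68 (-1.27 to 2.16) and 1.47 (0.38 to 2.42). The whole injury macrophage list was at 0.08 and -0.03, and resident macrophage genes at -0.01 and 0.06. Fabp5 and Cd63 supplied most UMIs of the injury list, so its sum mostly followed them. In the mitosis-rich spots Fabp5 had 238 of the list's 432 UMIs in the Het section and 458 of 941 in the KO section. Cd63 had 156 and 353.

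Lymphocyte and granulocyte markers were too scarce to place. T and NK cell markers had 10 UMIs in the mitosis-rich PD1 Het spots and 19 in the PD1 KO spots, with log2 ratios of 1.0 (-0.12 to 1.97) and -0.66 (-1.41 to 0.01), the latter 0.39 without the 5% of spots of each set with the most UMIs of the list. B cell markers had 29 and 80 UMIs, at -0.25 (-0.84 to 0.30) and 0.49 (0.14 to 0.83), and neutrophil markers 20 and 13 UMIs, at 0.96 (0.21 to 1.64) and -0.38 (-1.31 to 0.43). Mast cell markers had 25 and 61 UMIs, at -0.86 (-1.49 to -0.28) and -0.13 (-0.53 to 0.24). The Het mast cell ratio turned to 0.75 with 120 spots and to 0.23 without the 5% of spots of each set with the most mast cell UMIs. Red blood cell genes were at -0.08 (-0.11 to -0.04) and -0.55 (-0.58 to -0.52), and at -0.26 in the KO section without the 5% of spots of each set with the most of them.

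Pdcd1, the gene targeted in this model, had 0 UMIs in the kept spots of both sections, mitosis-rich or not. This allows up to 3 UMIs per section at this depth, so the spots do not check the genotype labels. Cd274, which encodes its ligand PD-L1 (chr19:29367455-29388095), had 1 and 3 UMIs in the mitosis-rich and remaining PD1 Het spots and 2 and 48 in the PD1 KO spots. The PD-1 pathway list as a whole, whose UMIs came mostly from the phosphatase gene Ptpn11 and from Tgfb1, was at -0.25 (-0.67 to 0.14) and 0.19 (-0.03 to 0.40).

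Growth factor and energy genes differed little as lists. Cardiac growth factors, their receptors and Hippo pathway targets summed to 0.04 (-0.07 to 0.14) and -0.05 (-0.12 to 0.02), with Igf2, the fetal insulin-like growth factor, at 0.11 (-0.11 to 0.33) and -0.25 (-0.43 to -0.07), and the neuregulin receptor gene Erbb2 at 0.13 and 0.19. Glycolysis genes were at 0.01 (-0.03 to 0.04) and 0.08 (0.05 to 0.10). The genes of the mitochondrial genome were lower in both sections, at 23.9% of all UMIs in the mitosis-rich and 25.8% in the remaining PD1 Het spots and at 14.0% and 16.0% in the KO section, log2 ratios of -0.11 and -0.19. Leaving mitochondrial UMIs out, both from the ranking and from the total, moved the summed fibroblast markers to -0.17 and -0.02.

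**Figure D4:**
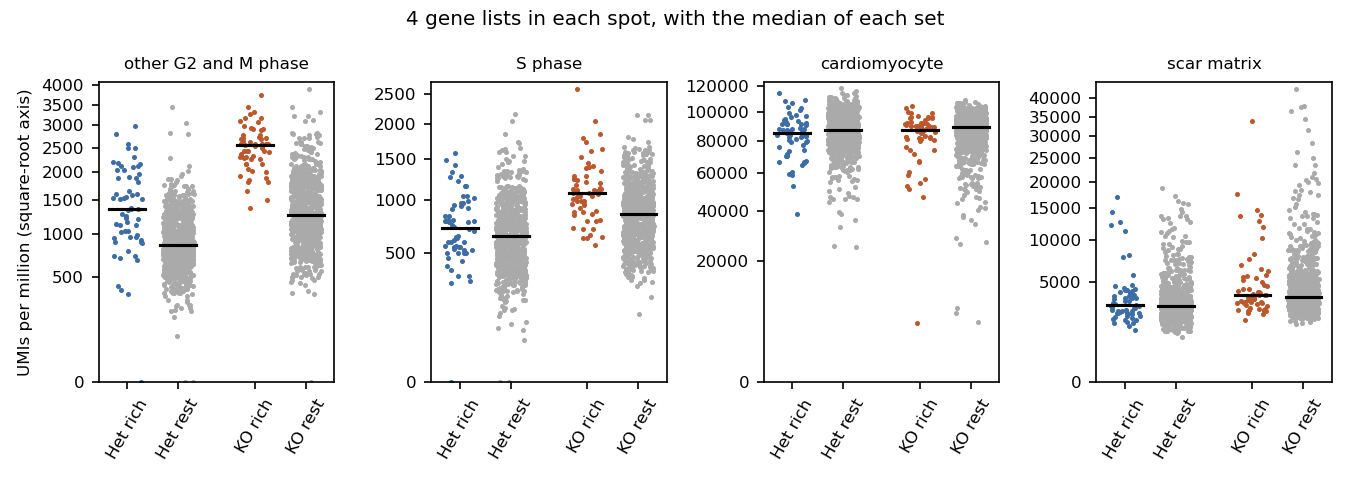
Summed level of 4 gene lists in every kept spot (CPM on a square-root axis), for the mitosis-rich spots (rich) and the remaining spots (rest) of the PD1 Het and KO sections, with a black line at the median of each set. The other G2 and M phase genes have medians of 1365 against 852 CPM and 2558 against 1264 CPM, while cardiomyocyte and scar matrix genes spread over the same range in both sets.

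The same values were also read from the other side, by ranking all kept spots of a section on a cell type list and reading the rule genes in each quintile. This uses the rule genes that chose the spots, in the same spots, so it describes the comparison again and is not separate support. Across quintiles of cardiomyocyte, fibroblast, scar matrix, endothelial and macrophage markers the rule genes lay between 187.7 and 227.3 CPM in the Het section and between 346.3 and 417.6 CPM in the KO section. Within these ranges the highest and lowest quintiles differed for some lists. Cardiomyocyte markers gave 206.2 to 218.5 and 368.3 to 404 CPM, and fibroblast markers 215.8 to 215.2 and 389.3 to 351.7 CPM. Scar matrix genes gave 222.3 to 187.7 and 403 to 354.7 CPM. Endothelial markers gave 227.3 to 190.2 and 399.9 to 371.6 CPM, and macrophage markers 210.5 to 213.6 and 362.5 to 417.6 CPM. Across quintiles of the S phase genes the rule genes ran from 285.1 CPM in the highest to 141.1 CPM in the lowest quintile of the Het section and from 491.7 to 257.6 CPM in the KO section. Across quintiles of the other G2 and M phase genes they ran from 369.6 to 129.8 CPM and from 679.9 to 176 CPM. The highest of these quintiles held 34 of the 60 mitosis-rich PD1 Het spots and 54 of the 60 PD1 KO spots. Depth also moved with the level in the Het section, where the deepest quintile had 181 CPM and 9 of the 60 spots and the shallowest 235.4 CPM and 18 of the 60. In the KO section the deepest and shallowest had 384.5 and 365.4 CPM. When every spot was thinned to 5000 UMIs before ranking, the other G2 and M phase genes had a log2 ratio of 0.57 there and 0.76 in the KO section.

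**Figure D5:**
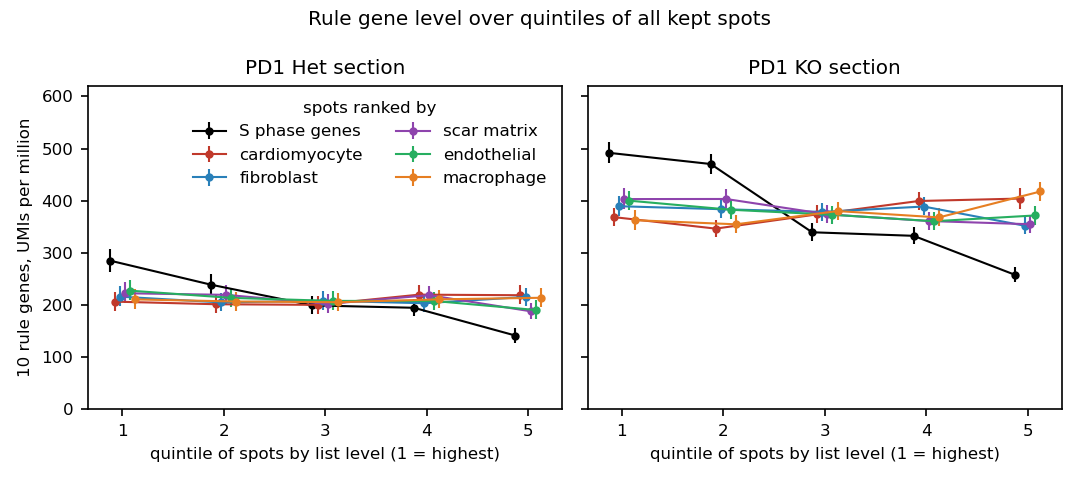
Level of the 10 rule genes (CPM, vertical axis) in quintiles of all kept spots ranked by 6 gene lists (horizontal axis, 1 is the quintile with the highest list share), with 95% counting intervals. The S phase line descends from 285.1 to 141.1 CPM in the Het section and from 491.7 to 257.6 CPM in the KO section, and the lines of the 5 cell type lists stay within 187.7 to 227.3 and 346.3 to 417.6 CPM.

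Choosing 60 spots by another list showed how far the sets shared members. Of the 60 spots with the largest share of other G2 and M phase genes, 22 were mitosis-rich in the Het section (36.7%) and 33 in the KO section (55%). For S phase genes these counts were 9 and 11, for fibroblast markers 6 and 8, for ventricular cardiomyocyte markers 5 and 2, for macrophage markers 4 and 4, and for endothelial markers 2 and 4. The mitosis-rich spots are 7.4% and 7.05% of all kept spots of their sections.

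Across all genes outside the rule, 438 of 8600 were at least 1.5-fold higher and 552 (6.42%) at least 1.5-fold lower in the mitosis-rich PD1 Het spots, and 459 and 397 of 10792 (3.68% lower) in the PD1 KO spots. Among genes with at least 1000 UMIs, 3 of 1392 were that much higher in the Het section, namely Selenoh, a nucleolar selenoprotein, Stmn1, the microtubule-destabilizing stathmin, and Ube2s, a ubiquitin-conjugating enzyme of the anaphase-promoting complex. The elastin gene Eln was the 1 that was lower. In the KO section 19 of 3295 were higher, among them Ccna2, Cks2, Cenpa, Hjurp, Rrm2, Ube2s, Selenoh, Cdkn2d, H2afz, Arl6ip1, Rangap1 and 4 tubulin genes (Tuba1c, Tubb4b, Tubb5 and Tubb6), and Cd200 and Hbb-bt were lower. Nppa was among the 19, as were the matrix gene Cilp and the muscle gene Klhl41, both named after their values were seen. Higher in both sections were 54 genes. They made up 12.3% of those higher in the Het section, beside 4.25% of all genes that were higher in the KO section. Of those higher in the KO section they made up 11.8%, beside 5.09% of all genes in the Het section. The 28 genes lower in both stood closer to the plain shares. They were 5.07% of those lower in the Het section, beside 3.68% of all genes in the KO section. Of those lower in the KO section they were 7.05%, beside 6.42% in the Het section.

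Outside all lists, several of the genes highest in both sections are known parts of division. Tubb6, a beta-tubulin, had 77 UMIs in the mitosis-rich PD1 Het spots, at a log2 ratio of 0.80 (0.44 to 1.15), and 194 in the PD1 KO spots, at 0.93 (0.70 to 1.15). Hjurp, which loads the centromeric histone, was at 0.64 and 0.74, the kinetochore subunit gene Spc24 at 0.62 and 0.88, Nde1, a dynein cofactor of the spindle, at 0.59 and 0.87, and Ube2s at 0.63 (0.46 to 0.80) and 0.69 (0.55 to 0.83). The cell cycle inhibitor gene Cdkn2d was at 0.76 and 1.08, and Lockd, a non-coding RNA made beside Cdkn1b, at 0.72 and 1.20. The list also held Neurl1b at 0.78 and 1.02, Il17d at 0.89 and 0.70, Coprs at 0.89 and 0.62, Sema3c at 0.67 and 0.60, Nup62 at 0.58 and 0.63, the collagen gene Col5a3 at 0.52 and 0.67, and Sez6l2 at 0.72 and 0.51. Among the lowest genes in both sections were the MHC class II invariant chain gene Cd74, at -0.62 (-1.77 to 0.33) on 9 UMIs and -0.96 (-1.48 to -0.49) on 37 UMIs, and the lysosomal protease gene Ctsh, at -0.99 (-1.96 to -0.17) and -0.46 (-1.0 to 0.04). Llph was at -0.66 and -0.70, and the other 12 of the lowest 15 lay between -0.78 and -0.40 in both sections.

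The genes whose level over all spots was most like that of the summed rule genes were, in order, Tuba1b, Tubb5, H2afz, Cks2, Rrm2, Tubb4b, Ccna2, Tubb6, Ube2s and Stmn1. Their Spearman rho with the rule genes lay between 0.16 and 0.26 over the 811 PD1 Het spots and between 0.34 and 0.47 over the 851 PD1 KO spots. The median gene had a rho of 0.01 and 0.02 over 6125 genes. These are descriptions over spots that share a library and a depth per spot. Cks2 binds Cdk1, Stmn1 and the tubulins shape microtubules, and Rrm2 supplies nucleotides for replication. For the summed other G2 and M phase genes rho was 0.42 and 0.71.

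Between the sections, the rule genes had a higher level in the KO section. Over all kept spots they made up 209.2 CPM (2681 UMIs) in the PD1 Het and 377.4 CPM (8877 UMIs) in the KO section, a log2 ratio of PD1 KO over PD1 Het of 0.85 (0.79 to 0.91). It was 0.67 without mitochondrial UMIs and 0.52 relative to the median gene, which itself was at 0.33. All 10 genes were higher in CPM, from 0.33 (0.18 to 0.48) for Mki67 to 1.33 for Nusap1, but Mki67 was only level with the median gene. At or above the lowest mitosis-rich level of the Het section, 498.5 CPM, lay 206 PD1 KO spots (24.2%, 21.4 to 27.2). The matching 60 PD1 Het spots (7.4%) were fixed by the choice, so that share is not a measured result. With every spot thinned to 5000 UMIs, which left out 16 and 3 shallower spots, at least 3 rule gene UMIs were seen in 10.9% of the Het and 30% of the KO spots (53.4% and 90.8% unthinned). The sections also differed in depth, with a median of 15475 against 27134 UMIs per spot, and in the mitochondrial share, 25.6% against 15.9%. They differed as well in sex-linked genes, with 541 UMIs of Xist against 1 and with 1 UMI of 4 Y-linked genes against 2900. With 1 section each, genotype, sex, depth and the single animal cannot be told apart.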

How the data were processed

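Each deposited matrix gives a raw count of UMIs for a gene in a spot. The authors made it with Space Ranger, version 1.1.0 in the file headers, on builds mm10 and GRCm38 per the submitters' processing notes. No aligner setting is given in the sources used here. Spots under 500 UMIs were left out (1 of 812 PD1 Het, 8 of 859 PD1 KO), which kept 12814494 and 23520499 UMIs. In each section the 60 spots with the largest share of UMIs from the 10 rule genes were chosen. UMIs were summed over the chosen and the remaining spots, scaled to CPM and compared as a log2 ratio with a 95% exact conditional interval. Shares of spots have Clopper-Pearson intervals, which take each spot as a separate draw, and levels have Poisson intervals. Those of levels and ratios cover counting error only, and none covers the spread between sections. The libraries share 225 barcodes, and the mitosis-rich spots 1. Spot positions were not used. A further list fixed in the design is not reported here.

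The rule, the members and the 31 gene lists (418 of 419 genes found) were chosen with earlier results of these data known. The named genes are the rule genes, Pdcd1, Cd274, up to 4 members per list with at least 30 UMIs in each section (2 by UMIs and 2 by the absolute ratio), the 15 highest and 15 lowest genes outside the lists with at least 200 UMIs, and the 10 with the highest Spearman rho of log2(CPM + 1) with the summed rule genes. Other members were named after their values were seen. Genes with at least 100 UMIs and a ratio past 1.5-fold were counted, without a test. Ratio scripts were tested on simulated counts. Alternatives were other numbers of spots, other filters, thinning, a ranking by other genes, depth weighting, the median gene and the TMM factor of edgeR 4.0.16. Python 3.11.15, NumPy 2.4.6, SciPy 1.17.1, pandas 2.3.3 and R 4.3.3 were used. Promoters are from RefSeq (GRCm38.p6), and all 10 rule genes matched.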

Additional observations from a re-analysis of the deposited data

Results flagged for a closer look

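Each of 3 results had opposite signs in the sections, with the counting interval of each on its own side of 0, and the difference between the sections was not tested. The summed cardiomyocyte maturation genes had a log2 ratio of mitosis-rich over remaining spots of 0.048 in the Het section and -0.025 in the KO section. Fibroblast markers stood at -0.047 and 0.12, and Col3a1, the type III collagen gene among them, at -0.16 and 0.071. All 6 values are small beside the range of the lists over spots, which for fibroblast markers ran from 1664 to 70593 CPM in the mitosis-rich PD1 Het spots.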

How the results depend on the processing

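No paired analysis was possible because each genotype has 1 section. Section, animal, sex and genotype cannot be told apart, and the choice rests on a median of 9 rule gene UMIs per PD1 Het spot. Of the recomputed values for the lists and counts that the comparisons rest on, 110 stayed within the interval of the main value or within 1.5 times a count, and 68 did not. The cause of each move below was not tested. Values are log2 ratios unless they are counts.

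With 30 spots, PD1 Het values were 0.91 for other G2 and M phase genes and 0.43 for S phase genes, and PD1 KO values were 0.24 for S phase genes, -0.073 for fibroblast and -0.20 for macrophage markers. With 120 spots, PD1 Het values were 0.63 for other G2 and M phase genes, 0.14 for fibroblast and 0.12 for macrophage markers, and PD1 KO values were 0.83 for other G2 and M phase genes, -0.059 for ventricular cardiomyocyte and 0.25 for fibroblast markers. After thinning to 5000 UMIs before ranking, PD1 Het values were 0.57 for other G2 and M phase, 0.10 for S phase and 0.053 for fibroblast genes, and PD1 KO values were 0.76 for other G2 and M phase, 0.0092 for fibroblast and -0.32 for macrophage genes. Ranking by the other G2 and M phase genes gave 0.43 for S phase, 0.12 for endothelial and 0.44 for macrophage genes in the PD1 Het section, and -0.12 for ventricular cardiomyocyte, 0.29 for fibroblast, -0.088 for endothelial and 0.23 for macrophage genes in the PD1 KO section.

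Without mitochondrial UMIs, cardiomyocyte and fibroblast markers were at -0.034 and -0.17 in the PD1 Het section, and cardiomyocyte, fibroblast and macrophage markers at -0.069, -0.023 and -0.32 in the PD1 KO section. In spots with at least 5000 UMIs, PD1 Het cardiomyocyte and fibroblast markers were at 0.00057 and -0.16. Centred on the median gene, cardiomyocyte markers were at -0.052 and -0.089 in the 2 sections, and PD1 KO fibroblast and endothelial markers at 0.086 and -0.054. With the TMM factor, cardiomyocyte, fibroblast and endothelial markers were at -0.10, -0.13 and -0.045 in the PD1 Het section and at -0.12, 0.056 and -0.085 in the PD1 KO section, where other G2 and M phase genes were at 0.83 and S phase genes at 0.30. With the remaining spots weighted to the same depths, PD1 Het cardiomyocyte and fibroblast markers were at -0.023 and -0.11, and PD1 KO fibroblast markers at 0.16. Without the 5% of spots of each set with the most UMIs of the list, PD1 Het fibroblast markers were at 0.0064, PD1 KO other G2 and M phase genes at 0.95, PD1 Het mast cell markers at 0.23 (from -0.86) and PD1 KO T and NK cell markers at 0.39 (from -0.66).

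Genes at least 1.5-fold higher in the PD1 Het section numbered 851 with 30 spots, 240 with 120 spots, 268 with the TMM factor, 1239 from 20 UMIs, 2346 from 1 UMI and 3 from 1000 UMIs. Those at least 1.5-fold lower numbered 983 with 30 spots, 160 with 120 spots, 1308 from 20 UMIs, 1308 from 1 UMI and 1 from 1000 UMIs. In the PD1 KO section the higher genes numbered 293 after thinning, 990 from 20 UMIs, 2073 from 1 UMI and 19 from 1000 UMIs, and the lower genes 1054 with 30 spots, 121 with 120 spots, 925 from 20 UMIs, 925 from 1 UMI and 2 from 1000 UMIs. With 120 spots the sign turned for Mpeg1 (0.010), Cma1 (0.98), Mcpt4 (0.36), Cpa3 (0.58), Atf3 (0.013), Cd74 (0.21) and the mast cell list (0.75) in the PD1 Het section and for S100a8 (0.25) and Hspa1b (0.032) in the PD1 KO section. With 30 spots it turned for Slc2a1 (-0.34), Sema3c (-0.27) and Col5a3 (-0.33) in the PD1 KO section.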
